A study of Mus musculus with 2 samples.

Results

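The genes of potassium channels and of HCN channels were described by the m6A sites listed on them in the cerebellum and the cerebrum of newborn mice. Members were the mouse protein-coding genes of GENCODE M21 whose symbol begins with Kcn, or with Hcn and a digit, with 1 such gene left out by the rule. They numbered 97 of 21950 protein-coding genes. A site was assigned to a member where it lay inside the gene on the same strand. The members held 817 of the 79355 listed sites of the cerebellum and 1910 of the 188295 of the cerebrum.

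Each tissue was represented by 1 GLORI library, made from poly(A)+ RNA of a female F1r hybrid at P0, the day of birth. F1r animals had a C57 mother and a PWK father, so every transcript came from a hybrid genome. GLORI deaminates unmethylated adenosines with glyoxal and nitrite, and an adenosine that is still read as A is taken as methylated. The authors listed a position where its methylation rate exceeded 0.1 with more than 8 reads, and the lists hold positions and strands without rates or reads. The depth behind a site is therefore unknown, and a position missing from a list may be unmethylated, not expressed or thinly covered. Fewer expressing cells and less RNA per cell cannot be told apart in such bulk samples. With 1 library per tissue no test between tissues was possible, and every difference given here is a difference between these 2 libraries.

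Potassium channels let potassium leave the cell and so set the resting potential, shape the action potential and limit repetitive firing. The voltage-gated Kv families open on depolarisation, the calcium-activated BK and SK channels after calcium entry, the inward rectifiers and K2P channels hold the resting potential, and auxiliary subunits such as KChIPs and Kv beta subunits alter the gating and traffic of the pores. HCN channels open on hyperpolarisation, carry a mixed cation current and are regulated by cyclic nucleotides. m6A is a methyl mark on adenosines of mRNA, placed mostly within the consensus DRACH, in which D is A, G or T, R is A or G, and H is A, C or T.

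The names of both deposited files carry the same tissue abbreviation, so tissues were taken from the sample labels, and these were checked with marker genes. Of 12 cerebellum markers, 9 had an exonic DRACH site in the cerebellum and 4 in the cerebrum, where En1, En2 and Barhl1 had 0. Of 13 cerebrum markers, 5 had such a site in the cerebellum and 13 in the cerebrum, and Tbr1 had 0 in the cerebellum and 16 in the cerebrum. Among cerebellum markers 2 had more sites in the cerebrum, Zic4 with 4 and 15 and Zic2 with 6 and 8, and Zic1 had 14 in each.

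To show what a listed site looks like, the site nearest to the stop codon among those listed in both libraries is given for members that lead their families. Sequences are 21 nt of the mm10 genome, 5′ to 3′ on the gene's strand, with the DRACH 5-mer in capitals and the listed adenosine at its centre. The distance is counted in the spliced transcript from the last base of the stop codon, and negative values lie upstream.
Kcnq3, coding sequence, -23 nt, chr15:65995184-65995204, minus strand: ttccatatGGACCccttccaa
Kcnd3, coding sequence, -46 nt, chr3:105669153-105669173, plus strand: cccaacacGAACAttccttcc
Kcna6, 3′ UTR, 97 nt, chr6:126738228-126738248, minus strand: gctccagaGGACCtcgaaccc
Kcnc1, 3′ UTR, 46 nt, chr7:46428347-46428367, plus strand: atccagtcAGACTgcttcctt
Kcnh7, coding sequence, -73 nt, chr2:62703009-62703029, minus strand: tctctgccAGACTcctcccta
Kcnma1, 3′ UTR, 24 nt, chr14:23299987-23300007, minus strand: tatcccagAAACAttcaaatc
Kcnj10, 3′ UTR, 215 nt, chr1:172370265-172370285, plus strand: aatgtataTGACTcttaagcc
Kcnk10, 3′ UTR, 10 nt, chr12:98434787-98434807, minus strand: aatgttaaAGACAttggaatt
Kcnab2, coding sequence, -13 nt, chr4:152393038-152393058, minus strand: agcaaaaaGGACTatagatcc
Kcnip1, 3′ UTR, 7 nt, chr11:33630534-33630554, minus strand: gtaactgaGGACActggccat

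DRACH sites on exons were present in 46 of the 97 members in the cerebellum (47.4%) and in 58 in the cerebrum (59.8%). The corresponding shares of all protein-coding genes were 34.3% and 44.2%. In either library, 61 members (62.9%) carried such a site, against 45.7% of all genes. At least 3 such sites lay on 30 members (30.9%) in the cerebellum and on 40 (41.2%) in the cerebrum, against 19.9% and 30.6% of all genes. In either library 12 members carried 20 or more, against 5.03% of all genes. The libraries together listed 695 exonic DRACH sites on members, of which 389 were in the cerebellum, 609 in the cerebrum and 303 in both. No exonic DRACH site was listed on 36 members, and 31 of them had no listed site of any kind.

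A few voltage-gated channel genes held many of the sites. The 20 members with the most sites held 535 of the 695 (77.0%), and the leading 7 held 296 (42.6%). Kcnq3, a subunit of the M-current that restrains repetitive firing, had 25 cerebellum and 48 cerebrum sites. Kcnd3 and Kcnd2, the pores of the somatodendritic A-type current, had 35 and 39 in the cerebellum and 39 and 36 in the cerebrum. Kcnd3 and Kcnd2 were thus near equal between the libraries, whereas the count of Kcnq3 was lower in the cerebellum and 24 of its 25 cerebellum sites were also listed in the cerebrum. A lower cerebellum count was the usual case, since over all genes it was 0.58 of the cerebrum count.

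**Figure D1:**
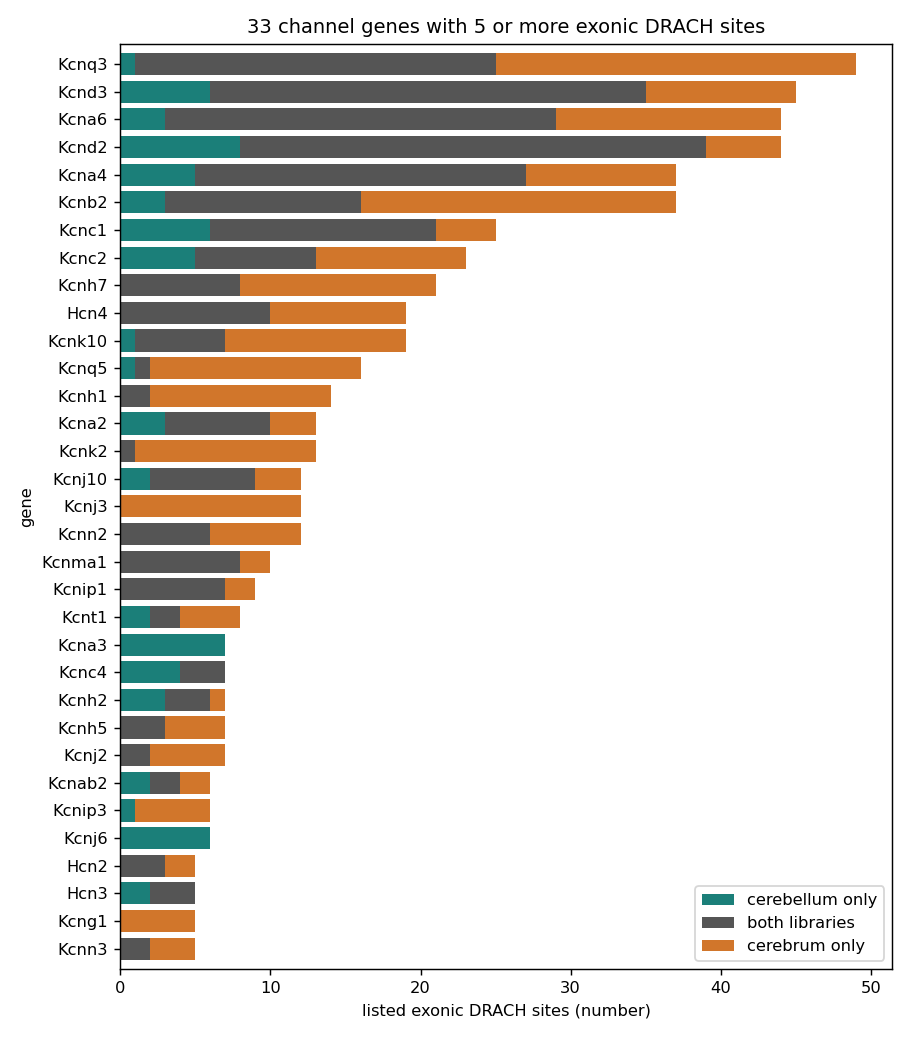
Numbers of exonic DRACH sites (x axis) on 33 of the channel genes with 5 or more (y axis), split into sites listed in the cerebellum only, in both libraries and in the cerebrum only. Kcnq3 leads with 49 sites, Kcna3 and Kcnj6 are cerebellum only, and Kcnj3 and Kcng1 are cerebrum only.

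Among the Kv1 genes, which encode low-threshold channels of axons and terminals, 6 of 8 had a site, with 73 cerebellum and 85 cerebrum sites. Over all protein-coding genes 45.7% had an exonic DRACH site in either library. Kcna6 had 29 and 41, and Kcna4, an inactivating Kv1 channel, had 27 and 32. On both transcripts more than 36% of the exonic DRACH adenosines were listed in at least 1 library, 36.4% for Kcna6 and 36.6% for Kcna4. They differed in where the sites lay: Kcna6 had 39 of 44 in the 3′ UTR and none in the 5′ UTR, whereas Kcna4 had 11 in the 5′ UTR, 16 in the coding sequence and 10 in the 3′ UTR. Kcna2, an axonal channel, had 10 sites in each library, Kcna1 had 0 and 1, and Kcna7 and Kcna10 had none.

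Kcnb2, a Kv2 delayed rectifier of soma and proximal dendrite, had 16 and 34 sites, and 19 of its 37 distinct positions were in the coding sequence. Of the Kv3 genes, channels of fast-spiking neurons, Kcnc1 had 21 and 19, Kcnc2 had 13 and 18, and Kcnc4 had 7 and 3. The Kv4 genes had 74 and 75.

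Kv4 was the family with the densest listing, since 21% of its exonic DRACH adenosines were listed in either library. The share was 6.95% over all members (95% Wilson interval 6.46 to 7.46, covering counting error over sites only) and 4.39% over all protein-coding genes. Among genes with an exonic DRACH site it was 9.06% for members and 7.1% for all genes. The sites of Kv4 came from Kcnd2 and Kcnd3, and Kcnd1 had no DRACH site on an exon. Kcnd2 had 10 sites in the 5′ UTR, 16 in the coding sequence and 18 in the 3′ UTR, and its exon 1 of 1911 nt held 12 of the coding sites. Kcnd3 had none in the 5′ UTR, 9 in the coding sequence and 36 in the 3′ UTR. Of the KChIPs, auxiliary subunits of Kv4 channels, Kcnip1 had 7 and 9 sites, Kcnip3 had 1 and 5, Kcnip4 had 1 and 1, and Kcnip2 had 0 and 1.

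Beside Kcnq3, the Kv7 gene Kcnq5, another M-current subunit, had 2 cerebellum and 15 cerebrum sites. Kcnq1, which lies in an imprinted gene cluster, had no listed site, so nothing could be described for it. All 8 genes of the Kv10 to Kv12 families had a site, against 45.7% of all genes, with 23 and 51 sites in all. Kcnh3 had only 0 and 1, and Kcnh6 only 1 and 0. Kcnh7 had 8 and 21, Kcnh1 had 2 and 14, and Kcnh2, the ERG channel of repolarisation, had 6 and 4. The silent subunits, which form no channel alone and modify Kv2, had 1 and 11 sites on 4 of 10 genes, below the share of all genes.

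Among the remaining pores, Kcnma1, the BK channel, had 8 and 10 sites, and all 8 cerebellum sites recurred in the cerebrum. Kcnn2, an SK channel of the afterhyperpolarisation, had 6 and 12. The inward rectifiers had 17 and 34 sites on 7 of 15 genes, near the 45.7% of all genes. Their most distinct positions, 12 each, were on Kcnj10, the glial Kir channel, with 9 and 10, and on Kcnj3, with 0 and 12. The K2P genes had 10 and 36 sites on 4 of 13 genes, below the share of all genes. Kcnk10 had 7 and 18 and Kcnk2 had 1 and 13, and both encode mechanosensitive leak channels of the TREK type. Of the HCN genes, Hcn4 had 10 and 19, Hcn2 had 3 and 5, and Hcn3 had 5 and 3.

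Of the small auxiliary subunits, Kcnab2, a Kv beta subunit, had 4 sites in each library and Kcnmb2, a BK beta subunit, had 2 and 3. Kcne1l of the KCNE family had 1 site, found in both libraries, and Kcnrg, a regulator related to the tetramerisation domain of Kv channels, had 0 and 3. Kcnmb4, another BK beta subunit, had 3 sites, all in both libraries, and Kcnmb1, Kcnmb3, Kcne1, Kcne3 and Kcne4 had no listed site.

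Of the 36 members with 5 or more exonic DRACH sites, 7 had more in the cerebellum than in the cerebrum (19.4%), against 5.65% of the 5273 genes with as many sites. Another 27 had more in the cerebrum (89.2% over all genes) and 2, Kcna2 and Kcnab2, had equal numbers (5.2% over all genes). The 7 were Kcnd2 (39 and 36), Kcnc1 (21 and 19), Kcnc4 (7 and 3), Kcna3 (7 and 0), Kcnh2 (6 and 4), Kcnj6 (6 and 0) and Hcn3 (5 and 3). For Kcnd2, Kcnc1, Kcnh2 and Hcn3 the counts differed by at most 3 sites, and with a threshold of 10 sites only Kcnd2 and Kcnc1 stayed among them. Over all members the cerebellum count was 0.639 of the cerebrum count, against 0.58 over all genes.

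Kcna3, a Kv1 channel, and Kcnj6, a G-protein-gated inward rectifier, had no exonic DRACH site in the cerebrum. They were 2 of the 36 members with 5 or more sites (5.56%), against 0.531% of all genes with as many. Sites of both genes are printed because all of them came from 1 library, and the genes were chosen after the counts had been seen. Kcna3 has a single exon, and 6 of its 7 sites lay in the coding sequence. Its 4 sites nearest to the 3′ end are shown, beside 3 sites of Kcnj6 on its exons.
Kcna3, coding sequence, -733 nt, chr3:107037266-107037286, plus strand: aacttgatAGACAttgtggcc
Kcna3, coding sequence, -368 nt, chr3:107037631-107037651, plus strand: gcacccagTGACCataggagg
Kcna3, coding sequence, -52 nt, chr3:107037947-107037967, plus strand: tgcaccacGAACAataacccc
Kcna3, 3′ UTR, 43 nt, chr3:107038042-107038062, plus strand: attgtgtgGAACAtgccccct
Kcnj6, coding sequence, -569 nt, chr16:94832847-94832867, minus strand: cccctcgtGGACTccttgtgt
Kcnj6, coding sequence, -512 nt, chr16:94832790-94832810, minus strand: ctccatagAGACAgaaaccac
Kcnj6, 3′ UTR, 57 nt, chr16:94749199-94749219, minus strand: cctctgacAGACAttacagag
The cerebrum list still held 4 intronic sites of Kcnj6, 3 of them DRACH.

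In the other direction, Kcnj3 had 0 and 12 exonic DRACH sites and Kcng1, a silent subunit, had 0 and 5. They were 2 of the 36 members with 5 or more sites (5.56%), near the 5.22% of all genes with as many. Kcnj3 and Kcnj6 encode subunits that assemble into the same G-protein-gated channels, and their exonic DRACH sites were listed in opposite libraries. The cerebellum list still held 2 intronic sites of Kcnj3, 0 of them DRACH. Of the 12 Kcnj3 sites, 8 lay in the coding sequence, and examples from its last exon are shown for comparison with Kcnj6.
Kcnj3, coding sequence, -261 nt, chr2:55595126-55595146, plus strand: ttcccaaaAAACTtctgagaa
Kcnj3, coding sequence, -19 nt, chr2:55595368-55595388, plus strand: agaaaaatGAACTctgaccgt
Kcnj3, 3′ UTR, 124 nt, chr2:55595511-55595531, plus strand: agatcagaGAACTcttcattg
Kcnj9, a further subunit of this group, had 0 and 1 site, and Kcnj5 had none.

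Of the cerebellum's exonic DRACH sites on members, 77.9% were also listed in the cerebrum (73.5 to 81.7), against 83.4% over all genes (83.0 to 83.7). Of those of the cerebrum, 49.8% were also listed in the cerebellum (45.8 to 53.7), against 48.4% over all genes. The shared portion was 115 of 142 coding sites and 166 of 220 3′ UTR sites of the cerebellum. Recurrence varied between genes: all 10 cerebellum sites of Hcn4, all 8 of Kcnh7 and all 8 of Kcnma1 were shared, against 8 of 13 for Kcnc2.

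Most DRACH sites on coding transcripts of members lay in the 3′ UTR, 57.1% (52.2 to 62.0) for the cerebellum and 53.9% (49.9 to 57.8) for the cerebrum. The coding sequence held 36.9% and 40.7%, and the 5′ UTR held 5.97% (4.01 to 8.8) and 5.39% (3.84 to 7.51). Over all genes the 3′ UTR held 57.3% and 55.7% and the coding sequence 40.0% and 41.4%. Of the DRACH adenosines on the longest isoforms of members with a site, 58.7% and 58.1% lay in the 3′ UTR. The ratios of site share to adenosine share there were 0.974 and 0.927, against 1.18 and 1.17 over all genes. The 5′ UTR shares over all genes were 2.75% and 2.88%, below the lower limits of the members' intervals, while glutamate and GABA receptor genes had 5.61% and 4.55%, close to the members. The 5′ UTR sites of members rested on few genes, with 11 positions on Kcna4, 10 on Kcnd2, 4 on Kcnj2, an inward rectifier, and 3 on Kcnc1. Without Kcnd2, the member with the most cerebellum sites, the 5′ UTR share of the cerebellum was 4.05%.

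Within 200 nt of the stop codon lay 17.4% (13.9 to 21.5) of the members' cerebellum DRACH sites and 15.3% (12.6 to 18.4) of their cerebrum DRACH sites. On the longest isoform of each member with an exonic DRACH site, 8.37% and 9.28% of the DRACH adenosines were in this window. The ratios of the site shares to these shares were 2.08 and 1.65. The site shares also include sites placed on other isoforms, so each ratio compares partly different transcripts. Over all genes the shares of sites were 22% and 22.1%, above the members' intervals, and the ratios were 2.28 and 2.19. Voltage-gated sodium and calcium channel genes had 28.5% (23.3 to 34.4) and 25.0% (20.8 to 29.8), and glutamate and GABA receptor genes 17.3% and 16.2%.

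In 100-nt bins over the 60 members with a DRACH site on a coding transcript, the listed share was highest just after the stop codon in both libraries. In the bin from 0 to 100 nt downstream, the cerebellum list held 18.1% (12.6 to 25.4) of the DRACH adenosines and the cerebrum list 24.6% (18.2 to 32.4), beside 14.5% and 24.5% over all genes. In the next bin the cerebrum share of members was 11.6% (7.26 to 18), against 25.9% over all genes. From 1500 to 300 nt before the stop codon the members lay above all genes in most bins, but not in all. The highest cerebrum share there was 16.8% (10.6 to 25.6), from 800 to 700 nt before it, against 6.27% over all genes. The cerebellum shares of that bin were 9.47% (5.06 to 17) and 3.38%. From 1200 to 1100 nt before the stop codon the members were lower, at 0% in the cerebellum and 5.88% in the cerebrum, against 3.53% and 6.49%. From 700 to 800 nt after it they were higher, at 7.84% and 17.6%, against 6.43% and 10.8%.

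**Figure D2:**
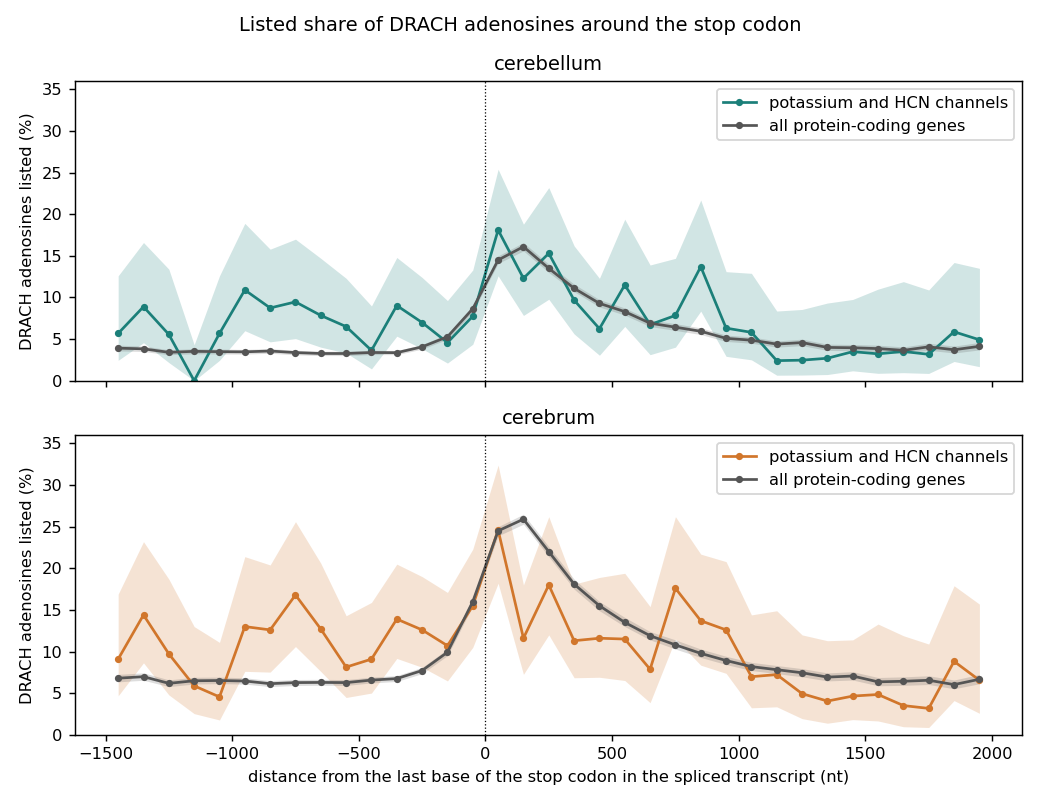
Percentage of DRACH adenosines that were listed (y axis) by distance from the stop codon in 100-nt bins (x axis, nt), for channel genes and all protein-coding genes with a site, with 95% Wilson intervals as bands. The channel genes are highest in the bin after the stop codon, at 18.1% in the cerebellum and 24.6% in the cerebrum, and lie above all genes in most bins upstream of 300 nt before it.

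Coding adenosines were listed far less often in short internal exons than in long ones. In internal exons under 400 nt, the cerebellum list held 0.55% (0.252 to 1.19) of the members' coding DRACH adenosines and the cerebrum list 1.74% (1.12 to 2.7). In internal exons of 400 nt or more the shares were 10.3% (7.73 to 13.7) and 17.7% (14.3 to 21.7), in last exons 6.71% and 12.5%, and in genes with a single coding exon 6.04% and 7.92%. All protein-coding genes had the same order between short and long internal exons, at 0.298% and 9.17% in the cerebellum and 0.69% and 14.9% in the cerebrum. In last-exon 3′ UTRs the members had 4.31% and 6.4%, near the 4.0% and 6.63% of all genes. The shares by exon class include genes without a listed site. An exonic DRACH site in either library was carried by 62.9% of members but 45.7% of all genes. Members and all genes can therefore not be compared here for placement alone.

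**Figure D3:**
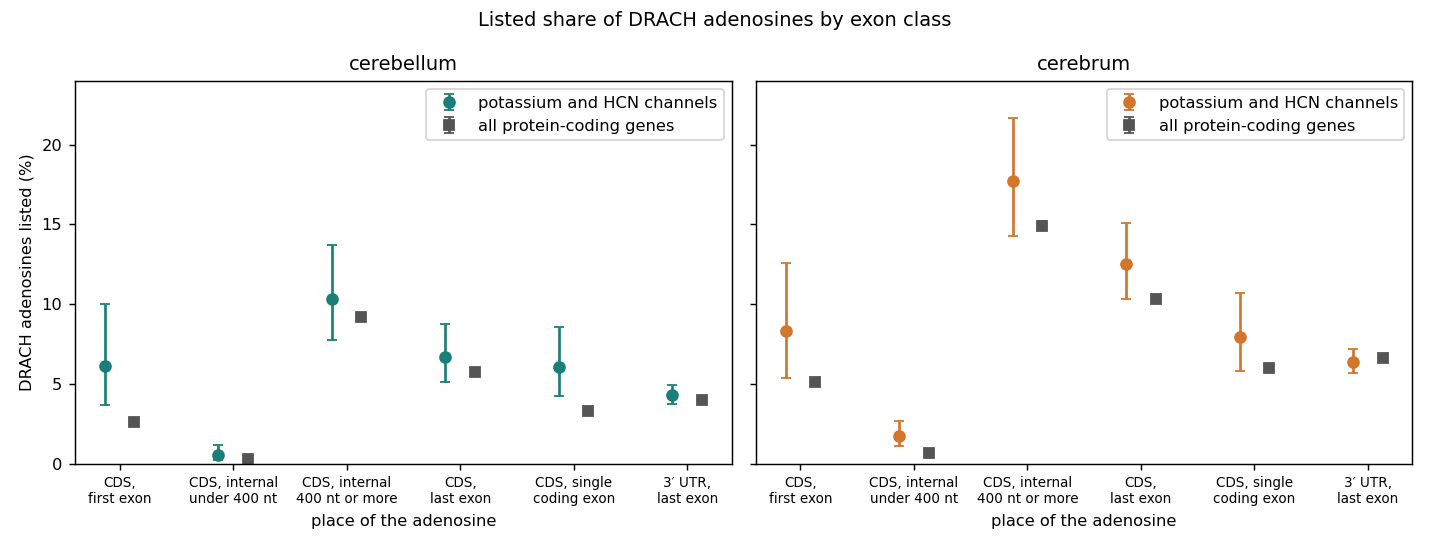
Percentage of DRACH adenosines that were listed (y axis) by place in the transcript (x axis), for channel genes and all protein-coding genes, with 95% Wilson intervals. Genes without a listed site are included. For the channel genes, internal coding exons of 400 nt or more reach 10.3% in the cerebellum and 17.7% in the cerebrum, against 0.55% and 1.74% in shorter ones.

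DRACH adenosines lay in long internal coding exons of the longest isoform in 32 members, and such exons without a site were not counted. The long internal exons with sites numbered 23 on 18 genes and held 78 sites. They included exon 2 of Kcnd3 (1183 nt, 7 sites), exon 2 of Kcnb2 (668 nt, 8 sites), exons 2 and 3 of Kcnc2 (718 and 928 nt, 4 and 6 sites), exon 2 of Kcnc4 (937 nt, 5 sites) and exon 6 of Kcnn2 (419 nt, 7 sites). Some of these exons belonged to paralogs. Exon 3 of Kcnn3, also 419 nt long, had 2 sites, and exons of 426 to 430 nt in Kcnh1, Kcnh2, Kcnh5 and Kcnh7 had between 1 and 4. Since exons without a site were left out, no recurrence between paralogs can be read from this. In Hcn2, Hcn4 and Hcn3 the long internal exon with sites was exon 2 in each case, of 424, 424 and 430 nt, with 5, 4 and 3 sites. All 5 sites of Hcn2 and 3 of the 5 of Hcn3 lay in this exon.

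The HCN exon allowed the same place to be compared between paralogs, a comparison chosen after the sites had been seen. Over the leading 160 nt the exons were set side by side without gaps, and 79.4% to 85.0% of the bases were identical between pairs. Counted from its 5′ end, the adenosine at position 123 is DRACH in Hcn2, Hcn3 and Hcn4 and was listed in both libraries for each of the 3 genes. The adenosine at position 141 is DRACH in Hcn2 and Hcn4 and was listed in both libraries for both genes. Both positions were picked because DRACH is shared between genes there and each such adenosine was listed. The windows are shown for the 3 genes, in lower case throughout where the mm10 letters are not DRACH. Whether a site outside DRACH was listed at such a position was not looked up.
Hcn2, position 123, chr10:79724500-79724520, plus strand: gtggtctcGGACActttcttc
Hcn3, position 123, chr3:89152928-89152948, minus strand: gtcctctcTGACActttcttc
Hcn4, position 123, chr9:58843990-58844010, plus strand: gtggtgtcAGACAcattcttc
Hcn2, position 141, chr10:79724518-79724538, plus strand: ttcctcatGGACTtggtgttg
Hcn3, position 141, chr3:89152910-89152930, minus strand: ttcctgctggatctggtgctc
Hcn4, position 141, chr9:58844008-58844028, plus strand: ttcctcatTGACTtggtcctc

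A shared DRACH was not always listed. Hcn2 and Hcn4 also share DRACH at positions 180, 201 and 323 of this exon, and these were listed in neither gene. Position 12 is DRACH in Hcn2 and Hcn4 and was listed in Hcn2 alone, and position 87 is DRACH in Hcn3 and Hcn4 and was listed in Hcn3 alone. In all, 5 of 10 DRACH adenosines of the exon were listed in Hcn2, 3 of 4 in Hcn3 and 4 of 9 in Hcn4. All sites of Hcn3 and Hcn4 there were in both libraries, and 3 of the 5 of Hcn2 were.

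**Figure D4:**
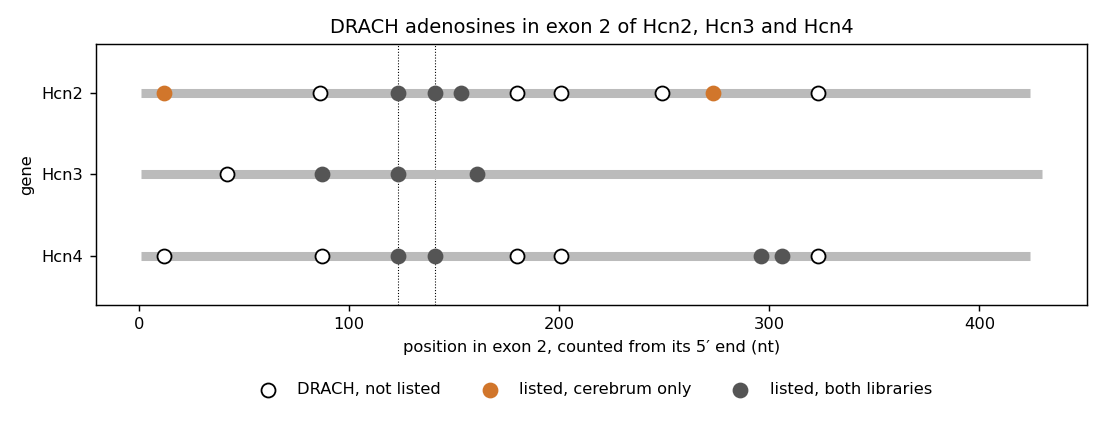
DRACH adenosines along exon 2 of Hcn2, Hcn3 and Hcn4 (x axis, position in nt from the 5′ end; y axis, gene), open where not listed and filled where listed in the cerebrum or in both libraries. Dotted lines mark positions 123 and 141, picked because DRACH is shared between genes there and every such adenosine was listed.

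The most frequent 5-mers among the 695 exonic DRACH sites of members were AGACT with 95 (13.7%, 11.3 to 16.4), GGACT with 79, TGACT with 79 and GAACT with 74 (10.6%). Over all genes GGACT came before the others at 13.1%, against 11.4% here (9.22 to 13.9), and AGACT had 12%. The members' intervals held the all-gene shares of these 4 motifs. Sites with T at the last base were the largest group on both the channel genes and all genes.

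Sites outside DRACH were a larger part of the members' lists than of those of all genes. DRACH sites made up 52.8% (49.3 to 56.2) of the members' cerebellum sites and 38.4% (36.2 to 40.6) of their cerebrum sites, against 63.2% and 47.5% over all genes. By region the members' DRACH shares were 75.9% and 67.0% in the coding sequence and 77.2% and 63.1% in the 3′ UTR, but 13.6% and 13.2% in introns. Over all genes they were 73.4% and 61.0% in the coding sequence, 76.5% and 65.6% in the 3′ UTR, and 14.9% and 12.5% in introns, and in each case the difference from the members was smaller than over all sites. Introns held 37.8% (34.6 to 41.2) of the members' cerebellum sites and 49.2% (47.0 to 51.5) of their cerebrum sites, against 17.8% and 26.1% over all genes. Glutamate and GABA receptor genes had higher intron shares, 47.2% and 57.6%, and sodium and calcium channel genes lower ones, 23.2% and 35.7%.

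The 1226 intronic positions lay on 31 members, and 5 very long genes held 76.3% of them. Kcnip4, a KChIP gene of 1135406 bp, had 74 intronic cerebellum sites and 270 intronic cerebrum sites, with 4 in both. Kcnd2 had 91 and 184 with 5 in both, Kcnh7 had 22 and 103 with 0 in both, Kcnb2 had 37 and 78 with 4 in both, and Kcnq5 had 10 and 80 with 0 in both. Length alone did not order them: per 100 kb of intron, Kcnd2 had 53.0 sites, Kcnip4 30.0 and Kcnma1, with 708085 bp of intron, 6.92.

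**Figure D5:**
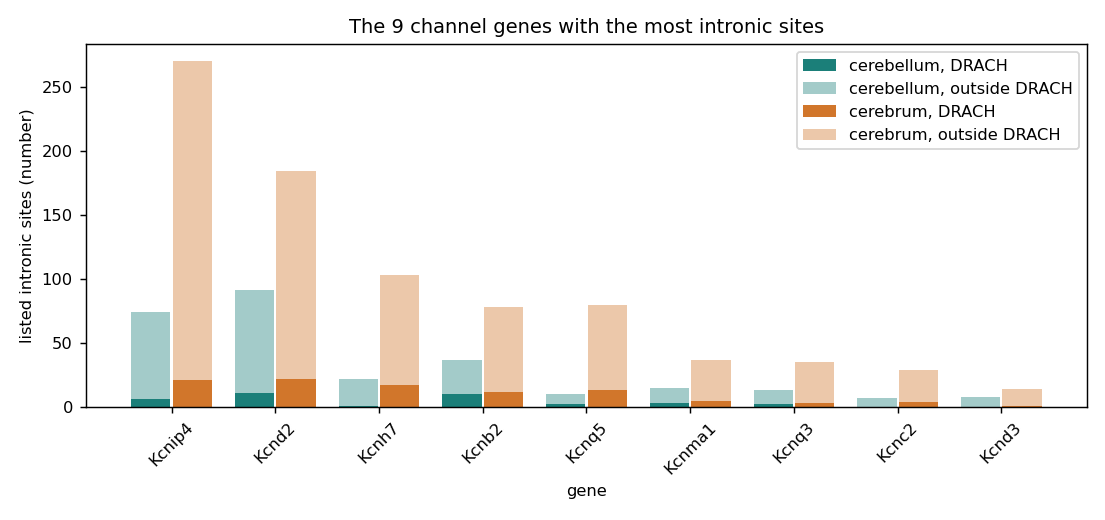
Number of listed intronic sites (y axis) on the 9 channel genes with the most (x axis), per library, with DRACH sites as the dark base of each bar and other sites above. Kcnip4 and Kcnd2 lead, with 270 and 184 intronic sites in the cerebrum, and most sites lie outside DRACH in every gene shown.

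Intronic sites outside DRACH seldom recurred. Of those in the cerebellum 4.87% were also listed in the cerebrum (2.87 to 8.15), whereas 44.5% of exonic sites outside DRACH were (35.9 to 53.5). Over all genes the shares were 7.28% and 40.2%, both inside the members' intervals. Only 156 of the 1226 intronic positions were DRACH. On Kcnip4, 54 of the 340 intronic positions also lay on a same-strand exon of another gene, and over all members 72 did. Intronic sites of one library also tended to sit 6 nt apart, with 22 neighbouring pairs at that distance in the cerebellum and 26 in the cerebrum, against at most 3 and 6 pairs at any other distance up to 12 nt. Whether such spaced sites are m6A was not tested.

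Proteins that bind or anchor these channels were counted from a list of 21 partner genes. Of these, 15 had an exonic DRACH site in the cerebellum and 16 in the cerebrum, with 185 and 271 sites. Over all protein-coding genes 34.3% and 44.2% had such a site. In the list 14 partners had more sites in the cerebrum and 2, Dpp10 and Cntnap2, had more in the cerebellum. Ank3, the ankyrin that holds Kv7 channels at the axon initial segment, had 70 and 81, and Lrrc55, an auxiliary subunit of BK channels, had 13 and 34. Dpp10, an auxiliary subunit of Kv4 channels, had 10 and 7 and its relative Dpp6 had 7 and 10. Cntnap2, which clusters Kv1 channels beside the node of Ranvier, had 8 and 6. Abcc8 and Abcc9, the sulfonylurea receptors, had none, and neither had Kcnj8 and Kcnj11, the pores they assemble with.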

How the data were processed

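The deposited files were 2 lists of genomic positions, 1 per GLORI library, with chromosome, position and strand. GLORI-tools was run by the authors against mm10 and against a PWK version of it, and the merged calls were filtered on rate and reads. The deposited unit is a position, with no other value and no depth, so precision could be given over sites only. The authors' annotation was GENCODE v26 by their methods; here gene models came from GENCODE M21 and sequence from GRCm38, the assembly of mm10.

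A site on a coding transcript was placed on the longest isoform covering it, of those annotated with start codon, stop codon and UTRs on either side. Intervals are 95% Wilson intervals, which treat neighbouring sites as independent. Listed shares of genes, families and gene sets were computed over the DRACH adenosines of the merged exons of each gene. Listed shares by exon class and by distance from the stop codon used adenosines and sites on the longest complete coding isoform of each gene only. Those by exon class included genes without a listed site, and those by distance did not. The members and lists were chosen with earlier results of these data known. Genes were named as the 20 members with the most exonic DRACH sites, the leading member of each family, members with more sites in the cerebellum and the 5 with the most intronic sites; others, and the HCN exon, were named after their values were seen. Alternatives changed the motif, the isoform, the window, the thresholds and the sites included. Coordinate and region steps were tested on simulated data. Some genes that these rules cover are not reported here. Computations used Python 3.11.15, pandas 2.3.3, scipy 1.17.1, pysam 0.24.0 and matplotlib 3.10.9.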

Additional observations from a re-analysis of the deposited data

How the results depend on the processing

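Of 76 alternative values for 19 results, 61 stayed within the interval or count range of the reported value and 15 did not. With sites listed in both libraries alone, the DRACH share was 82.6% in place of 52.8% and 38.4%, and the intron share 6.07% in place of 37.8% and 49.2%. Without the member with the most sites, the intron share was 31.9% in the cerebellum (without Kcnd2) and 41.0% in the cerebrum (without Kcnip4), and the cerebrum DRACH share 43.5%. A window of 400 nt around the stop codon held 30.9% and 27.4% of DRACH sites. With GGACH, GAACH or AGACH as the motif, 4.74% and 7.78% of adenosines were listed, against 3.89% and 6.09%. On the isoform with the longest coding sequence, 45.1% of cerebrum sites lay in the coding sequence and 49.8% in the 3′ UTR. At least 3 exonic DRACH sites were listed on 30 members in the cerebellum, and 2 members had more in the cerebellum at 10 or more sites. No paired analysis was possible because each tissue had 1 library and no test was made. Site lists without rates or reads limit every count to presence above the authors' thresholds.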
